A study of Mus musculus with 12 samples.

Results

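The 6 H3K9 methyltransferase genes Ehmt1, Ehmt2, Suv39h2, Setdb1, Setdb2 and Prdm2 were examined for H3K9me2 and H3K9me3 peaks in mouse adipose tissue. They code for enzymes of the same family of marks that was mapped, and they are 6 of the 22380 protein-coding genes of the annotation. A peak was assigned to a gene when it overlapped the promoter, taken as all sequence within 3 kb of one of its annotated start sites, or, outside these windows, the gene body. By this rule 63 of the 266606 peaks in all lists belonged to the 6 genes, of which 50 lay at promoters and 13 in gene bodies.

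C57BL/6J wild-type mice were given a high-fat diet (HFD) or kept on a standard chow diet (SCD), with high-fat feeding begun at 6 weeks of age and lasting 12 weeks. The heat-producing brown fat (BAT) and the fat-storing subcutaneous white fat (WAT) were then taken for chromatin immunoprecipitation and sequencing (ChIP-seq). There was 1 library for each diet, tissue and mark, so the 8 lists of peaks carry no replicate error, and no difference between diets was tested. Whether a library came from 1 mouse or from several is not given in the sources used here.

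The marks are named as in the labels, although the methods of the study describe the antibody listed for H3K9me2 as one against tri-methylated lysine 9 and that for H3K9me3 as one against the di-methylated form, so the identity of the marks could not be settled from the sources. The lists measure no transcripts, so the labelled tissues could not be checked against the expression of their defining genes. The lists held from 21976 peaks in HFD WAT H3K9me2 to 52758 in HFD BAT H3K9me3. The HFD list was the longer one for BAT H3K9me2 (43173 peaks under HFD and 24887 under SCD), BAT H3K9me3 (52758 and 26835) and WAT H3K9me3 (29190 and 27774), and the SCD list was the longer one for WAT H3K9me2 (21976 under HFD and 40013 under SCD). The score of a peak was read as 10 times the negative log10 of its p-value. Its lowest value was 50 or 50.01 in 6 lists but 30 in the SCD lists of WAT, so weak peaks could enter those lists only. Scores rank peaks within a list and were not used to compare the amount of methylation from list to list. The sequencing depth of the libraries is unknown, and the part that depth, list length and lowest score have in the values below was not tested.

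Methylation of lysine 9 on histone H3 is a hallmark of silent chromatin, and different enzymes write its degrees in different places. The proteins of Ehmt1 (GLP) and Ehmt2 (G9a) work as a pair that adds mono- and di-methylation in gene-rich chromatin, and Ehmt1 is known in brown fat as a partner of the transcription factor Prdm16. Suv39h2, like its relative Suv39h1, tri-methylates H3K9 at heterochromatin such as that around centromeres. Setdb1 is brought by Trim28 to retroelements and zinc finger genes, which it tri-methylates, Setdb2 is its relative and is known as an interferon-induced repressor in mouse macrophages, and Prdm2 (also called RIZ) carries the PR domain, a relative of the SET domain of the other enzymes.

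The genes differ in size and in the number of their start sites. On the mm9 genome Ehmt1 (ENSMUSG00000036893.9) lies on the minus strand of chromosome 2, from 24646289 to 24775129, with 13 start sites. Ehmt2 (ENSMUSG00000013787.9) lies on the plus strand of chromosome 17, from 35035414 to 35050997, with 14 start sites spread over most of the gene. Suv39h2 (ENSMUSG00000026646.10) lies on the minus strand of chromosome 2, from 3373087 to 3392303, with 4 start sites. Setdb1 (ENSMUSG00000015697.8) lies on the minus strand of chromosome 3, from 95127447 to 95161124, with 5 start sites. Setdb2 (ENSMUSG00000071350.5) lies on the minus strand of chromosome 14, from 60020846 to 60059721, with 6 start sites, and Prdm2 (ENSMUSG00000057637.6) on the minus strand of chromosome 4, from 142697294 to 142802898, with 4. All 6 have more start sites than the median protein-coding gene, which has 2 and a length of 15420 bp.

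The sequences below are stretches at or next to which many of the peaks of these genes were found. They are read 5′ to 3′ on the strand of the gene from the mm9 genome. Capitals mark, on either strand, exact matches to 5 short motifs: the GC box GGGCGG, the CCAAT box CCAAT, the E-box CACGTG, the cAMP response element TGACGTCA and the ETS site CCGGAAG. No marked match overlaps another. The promoters of Suv39h2, Setdb1 and Ehmt1 are shown as the 250 bases before the outermost start site. They are shown because 17 of the 63 peaks lay over the start sites clustered there. Not every peak covers all of these bases. At Setdb1 the peaks begin between -221 and -86 bp, so the marked CCAAT box lies outside them. The Suv39h2 peak of HFD BAT H3K9me2 begins 65 bp after the outermost start and covers none of them.
Suv39h2, chr2:3392304-3392553 (-): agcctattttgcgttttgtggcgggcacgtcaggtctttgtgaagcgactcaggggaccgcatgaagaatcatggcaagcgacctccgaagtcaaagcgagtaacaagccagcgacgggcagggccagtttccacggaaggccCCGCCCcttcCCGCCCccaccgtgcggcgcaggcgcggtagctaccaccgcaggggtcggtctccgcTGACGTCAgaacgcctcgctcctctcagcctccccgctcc
Setdb1, chr3:95161125-95161374 (-): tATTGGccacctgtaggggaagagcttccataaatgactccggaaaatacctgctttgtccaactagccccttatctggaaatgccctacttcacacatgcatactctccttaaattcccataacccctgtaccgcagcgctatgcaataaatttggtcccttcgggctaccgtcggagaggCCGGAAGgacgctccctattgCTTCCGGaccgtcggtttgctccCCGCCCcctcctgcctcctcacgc
Ehmt1, chr2:24775130-24775379 (-): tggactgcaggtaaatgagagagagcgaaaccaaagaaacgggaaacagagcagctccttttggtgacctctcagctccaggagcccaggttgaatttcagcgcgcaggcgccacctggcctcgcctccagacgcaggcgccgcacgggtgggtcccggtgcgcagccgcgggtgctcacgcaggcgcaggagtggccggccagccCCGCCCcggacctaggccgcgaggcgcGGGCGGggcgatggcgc

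The next sequence is the whole stretch of 96 bases between the outermost start sites of Setdb2 and Cab39l, a gene transcribed in the opposite direction. It is shown because each Setdb2 peak covered it, so that these peaks belong as much to Cab39l as to Setdb2.
Setdb2, chr14:60059722-60059817 (-): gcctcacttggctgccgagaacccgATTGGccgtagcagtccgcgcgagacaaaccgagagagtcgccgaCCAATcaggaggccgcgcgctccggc

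The last sequence is 200 bases from the inside of Ehmt2, from 7808 to 8007 bp after the outermost start site. It lies in the 757 bp that the peaks of 5 lists had in common, and 118 of its bases are coding. It is shown because peaks were found here in the HFD lists of BAT and in none of the SCD lists of BAT.
Ehmt2, chr17:35043222-35043421 (+): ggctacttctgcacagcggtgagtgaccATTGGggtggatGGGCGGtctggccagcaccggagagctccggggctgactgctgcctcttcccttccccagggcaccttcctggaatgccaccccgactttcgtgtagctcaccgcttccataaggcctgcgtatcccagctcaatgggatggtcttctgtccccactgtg

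By sequence, most of the 6 promoters belong to the CpG-rich kind that is typical of widely expressed genes. In the 250 bases before the outermost start site Ehmt1 has 26 CpG dinucleotides, Suv39h2 25, Setdb2 23, Ehmt2 16, Setdb1 13 and Prdm2 5, against a median of 8 over 22375 genes. The GC box was found in 4 of the 6 windows, against 39.6% of all genes, and the CCAAT box in 3, against 35.0%. The E-box was found at Ehmt2 only (6.52% of all genes), the cAMP response element at Suv39h2 only (1.91%) and the ETS site at Setdb1 only (8.22%), where it occurs in 2 copies. These matches describe the letters and were not read as bound sites.

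Promoter peaks were found at all 6 genes in 4 of the 8 lists and at none of them in 1 list. For H3K9me3 in BAT all 6 genes had a promoter peak under HFD and all 6 under SCD, where 58.9% of protein-coding genes had a promoter peak under HFD and 52.3% under SCD. For H3K9me2 in BAT 4 of the 6 had a promoter peak under HFD and 6 under SCD, against 45.6% and 43.3% of all genes. For H3K9me2 in WAT the counts were again 4 under HFD and 6 under SCD, against 39.3% and 54.7% of all genes. With a common lowest score of 50 the SCD count there was 4 as well, and the share of all genes is not given for it. For H3K9me3 in WAT 3 genes had a promoter peak under HFD and 0 under SCD, against 35.9% and 18.9%. The list without any peak at these genes was thus also the one in which the fewest genes of the whole annotation had a promoter peak. The shares are not adjusted for the number of start sites, of which each of the 6 genes has more than the median gene.

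**Figure D1:**
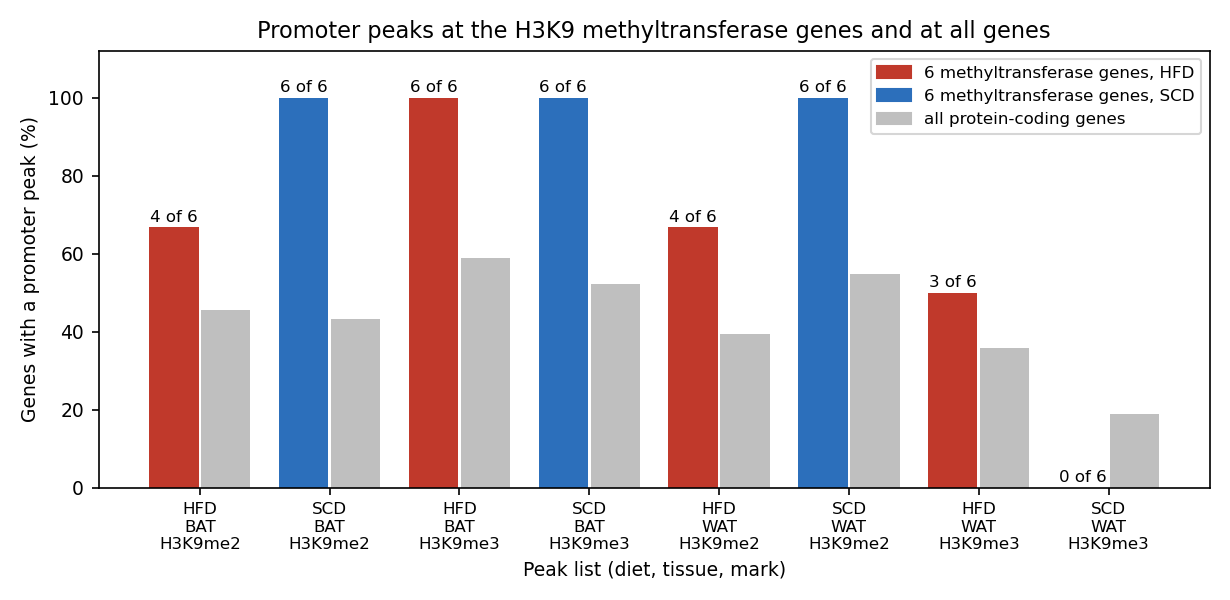
Share of genes with a promoter peak (%, vertical axis) in each of the 8 peak lists, for the 6 H3K9 methyltransferase genes under HFD (red) and SCD (blue) and for all protein-coding genes (grey), with 1 library per bar and no error. The share of the 6 genes stands above that of all genes in 7 lists and is 0 in SCD WAT H3K9me3, where 18.9% of all genes had a promoter peak. The shares are not adjusted for the number of start sites per gene.

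The diets parted the genes in 3 of the 4 comparisons. In BAT H3K9me2, 2 genes (Setdb1 and Prdm2) had a promoter peak under SCD only and 0 under HFD only, against 11.5% and 13.8% of all genes. With equal numbers of peaks from each list, 4 genes (Ehmt1, Prdm2, Setdb1 and Suv39h2) had one under SCD only and 0 under HFD only. The shares of all genes in that setting are not given, so these counts cannot be set against them. In BAT H3K9me3 no gene had its promoter peak under HFD only or under SCD only, against 8.83% and 2.16% of all genes. In WAT H3K9me2, 2 genes (Ehmt1 and Setdb2) had a promoter peak under SCD only and 0 under HFD only, against 18.0% and 2.63%. In WAT H3K9me3, 3 genes (Ehmt2, Suv39h2 and Prdm2) had a promoter peak under HFD only and 0 under SCD only, against 23.9% and 6.89%. With only the outermost start site of each gene, Ehmt2 had no promoter peak in either HFD list of WAT, so that 3 genes had one under SCD only for H3K9me2 and 2 under HFD only for H3K9me3. In WAT H3K9me3 the HFD-only direction was thus also the more common one among all genes.

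Because peaks down to a score of 30 were kept in WAT under SCD, the WAT comparisons were repeated with a common lowest score of 50. For H3K9me2 the SCD promoter peaks of Suv39h2 (47.05) and Setdb1 (32.06) then dropped out, so that 2 genes had a peak under HFD only and 2 (Ehmt1 and Setdb2) under SCD only, against 7.16% and 10.2% of all genes. Under each diet 4 genes then had a promoter peak. For H3K9me3 the counts stayed at 3 under HFD only and 0 under SCD only, against 30.6% and 1.68% of all genes.

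**Figure D2:**
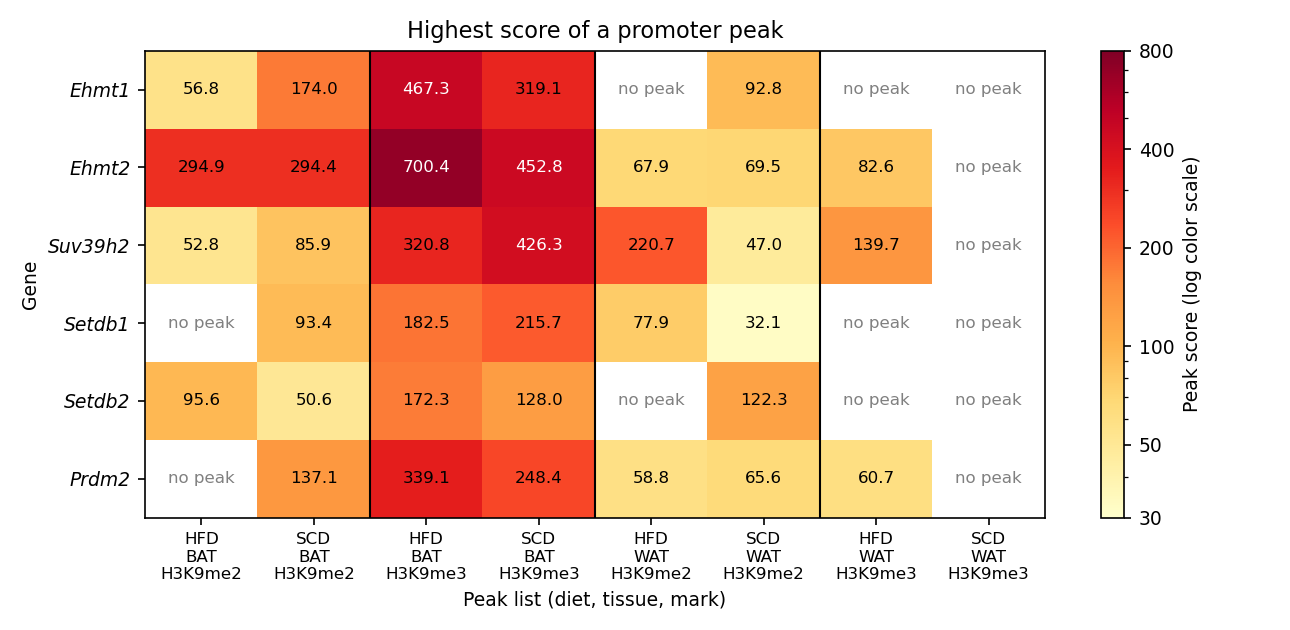
Highest score of a promoter peak of each gene (rows) in each peak list (columns, HFD left of SCD for each tissue and mark). The value is printed in the cell over a log color scale, and a cell reading "no peak" is a gene without a promoter peak. BAT H3K9me3 is filled for all 6 genes with scores from 128.04 to 700.44, and SCD WAT H3K9me3 reads "no peak" for all 6.

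Where the genes had a promoter peak, their highest scores were mostly ordinary for the list. The median over the members with a peak was 76.2 under HFD and 115 under SCD for BAT H3K9me2, where all genes with a promoter peak had medians of 88.2 and 102. For BAT H3K9me3 it was 330 under HFD and 284 under SCD, against 247 and 212 for all genes. For WAT H3K9me2 it was 72.9 under HFD and 67.5 under SCD, against 105 and 85.5, and for WAT H3K9me3 under HFD it was 82.6, against 83.3. The median of the members therefore lay above that of all genes in the BAT lists other than HFD H3K9me2, and below it in that list and the WAT lists with a value, while single members lay on either side of the median of all genes in each list that had a peak at them. To place a gene within a list, its percentile is given below as the percent of all genes with a promoter peak in the list whose highest promoter score was lower.

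Ehmt1 had a peak over its start site in every BAT list, and in WAT only in SCD H3K9me2. For BAT H3K9me2 the promoter score was 56.8 under HFD (percentile 11.1) and 173.97 under SCD (percentile 80.8). For BAT H3K9me3 it was 467.32 under HFD (percentile 80.5) and 319.14 under SCD (percentile 69.6). In WAT the H3K9me2 list of HFD held no peak and that of SCD held a peak with a score of 92.76 (percentile 54.1), and neither H3K9me3 list of WAT held one. The order of the diets by percentile was thus opposite in the 2 marks of BAT, with H3K9me2 lower and H3K9me3 higher under HFD. The 5 peaks shared 808 bp with 13.6 CpG per 100 bp, and this region covered the 6 start sites that lie within 19 bp of the outermost one. The other 7 start sites of Ehmt1, spread over the following 113258 bp, had no peak within 3 kb in any list.

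Ehmt1 also had gene-body peaks far from that start. One region, in an intron 100517 to 101089 bp after the start, had a peak under HFD in BAT H3K9me3 (136.96) and under SCD in WAT H3K9me2 (30.51), a score that only a list with the lower threshold could hold. Another, 127087 to 128326 bp after the start and close to the end of the gene, had a peak in HFD BAT H3K9me2 only (80.33), with 390 coding bases below it. Both hold fewer CpG than the shared part of the start peaks, with 1.71 and 2.02 per 100 bp against 13.6.

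Ehmt2 had the most peaks, with 22 of the 63, and they fell into 4 separate regions. All of them counted as promoter peaks, since the start sites of Ehmt2 are spread over the gene. The highest promoter score was 294.92 under HFD (percentile 97.6) and 294.44 under SCD (percentile 95.1) in BAT H3K9me2, and 700.44 under HFD (percentile 93.0) and 452.84 under SCD (percentile 83.8) in BAT H3K9me3. In WAT it was 67.9 under HFD (percentile 20.5) and 69.5 under SCD (percentile 38.4) for H3K9me2, and 82.59 under HFD (percentile 49.3) for H3K9me3, with no peak under SCD. The near-equal scores of the diets in BAT H3K9me2 came from different places, inside the gene under HFD and upstream of it under SCD, as the 4 regions show.

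The region upstream, from -4611 to -1687 bp relative to the outermost start, had scores of 80.33 under HFD and 294.44 under SCD in BAT H3K9me2. In BAT H3K9me3 it had 580.54 under HFD and 452.84 under SCD, and in WAT H3K9me2 no peak under HFD and 69.5 under SCD. Neither H3K9me3 list of WAT had a peak there. This region lies over the genes Zbtb12 and C2, the complement component whose outermost start is 17 bp from that of Ehmt2 on the other strand, so its peaks cannot be given to Ehmt2 alone. In HFD BAT H3K9me2 the peak covered only the part nearest to Ehmt2, from -2831 to -1768 bp, whereas the SCD peak was 2897 bp wide, the widest of all 63.

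The region over the outermost start itself, from -410 to 1548 bp, had no peak in HFD BAT H3K9me2 and a score of 86.46 in SCD BAT H3K9me2. It had 144.46 under HFD and 339.49 under SCD in BAT H3K9me3, where the SCD peak was 1959 bp wide and the HFD peak 822 bp. In WAT H3K9me2 it had no peak under HFD and 64.75 under SCD. At the start site each SCD list with peaks in Ehmt2 thus had a peak, and of the HFD lists only BAT H3K9me3 had one. This region also holds the outermost start of C2 and overlaps C2 by 394 bp, so its peaks, too, cannot be given to Ehmt2 alone.

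The region inside the gene, 6848 to 10436 bp after the outermost start, showed the opposite order in BAT. There it had scores of 294.92 under HFD and no peak under SCD for H3K9me2, and 700.44 under HFD and no peak under SCD for H3K9me3. The value of 700.44 was the highest of all 63 peaks. In WAT it had 67.9 under HFD and 47.7 under SCD for H3K9me2, and 82.59 under HFD and no peak under SCD for H3K9me3, the last 2 HFD values being the only peaks of Ehmt2 in those lists. The SCD peak of 47.7 is below the common lowest score of 50. The peaks of the 5 lists had 757 bp in common, from 7530 to 8286 bp after the start, and the annotation gives a protein-coding start at 7533 bp and a non-coding one at 8275 bp in this stretch, whose middle is printed above.

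The last region, 12020 to 13585 bp after the start, had scores of 162.37 under HFD and 63.96 under SCD in BAT H3K9me2 and 252.51 under HFD and no peak under SCD in BAT H3K9me3, and no peak in WAT. Its only annotated start belongs to a retained-intron transcript, and the start of the neighbouring gene Slc44a4 lies 2412 bp beyond it. Read from the 5′ to the 3′ end of Ehmt2 in BAT, the diets thus shared the upstream region, and SCD had the start-site peak in both marks and HFD in 1. The region from 6848 to 10436 bp had peaks under HFD only. The last region had an H3K9me2 peak under both diets and an H3K9me3 peak under HFD only. With 1 library per diet, this difference in place could not be set against the spread between libraries.

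**Figure D3:**
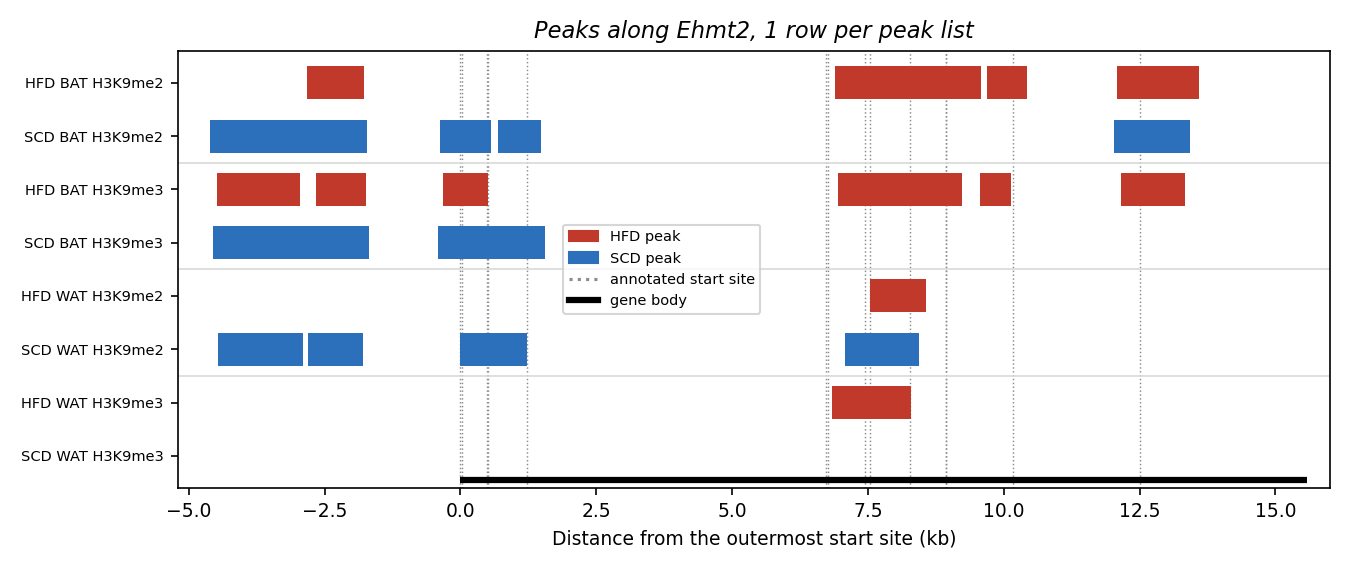
Position of each Ehmt2 peak (horizontal axis, kb from the outermost start site in the direction of transcription) in each of the 8 lists, HFD in red above SCD in blue, with dotted lines at the annotated start sites and a black bar for the gene body. Peaks in the internal region from 6848 to 10436 bp are drawn for all 4 HFD lists and for 1 SCD list.

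Suv39h2 had a peak over its start sites in 7 of the 8 lists, always in the same place. In BAT H3K9me2 the score was 52.81 under HFD (percentile 4.83) and 85.87 under SCD (percentile 37.8), and in BAT H3K9me3 it was 320.78 under HFD (percentile 62.9) and 426.27 under SCD (percentile 81.1). In WAT H3K9me2 it was 220.71 under HFD (percentile 89.5) and 47.05 under SCD (percentile 19.5). In WAT H3K9me3 it was 139.72 under HFD (percentile 83.7), and the SCD list held no peak. By percentile HFD was thus below SCD for both marks in BAT and above SCD for both marks in WAT. The peak in HFD BAT H3K9me2 was also the narrowest at this gene, with 706 bp against 1037 to 1174 bp in the other lists, and began 65 bp after the outermost start. The 646 bp that the 7 peaks shared had 10.8 CpG per 100 bp.

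Setdb1 had a peak over its start sites in 5 lists. In BAT H3K9me2 there was no peak under HFD and a score of 93.39 under SCD (percentile 43.5), and in BAT H3K9me3 it was 182.54 under HFD (percentile 36.4) and 215.71 under SCD (percentile 50.8). In WAT H3K9me2 it was 77.89 under HFD (percentile 30.1) and 32.06 under SCD (percentile 2.8), and neither H3K9me3 list of WAT held a peak. Over a common lowest score of 50 the H3K9me2 peak of Setdb1 was therefore found under SCD only in BAT and under HFD only in WAT. The peaks were among the narrower ones at promoters, from 567 to 825 bp, where the 50 promoter peaks of the 6 genes had a median of 1043 bp.

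Setdb2 had a peak over its start sites in every BAT list and in SCD WAT H3K9me2. The score was 95.6 under HFD (percentile 56.7) and 50.57 under SCD (percentile 0.589) in BAT H3K9me2, so that the SCD peak was close to the lowest score of its list. In BAT H3K9me3 it was 172.29 under HFD (percentile 33.9) and 128.04 under SCD (percentile 29.6). In WAT H3K9me2 there was no peak under HFD and a score of 122.26 under SCD (percentile 68.7), and WAT H3K9me3 had none under either diet. The 5 peaks differed little in place and width, from 815 to 904 bp, and covered the shared stretch printed above together with the first 512 bp of Cab39l or less. The start site of a retained-intron transcript 31229 bp into the gene had no peak.

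Prdm2 had a peak over its start sites in 6 lists. In BAT H3K9me2 there was no peak under HFD and a score of 137.13 under SCD (percentile 69.2), and in BAT H3K9me3 it was 339.1 under HFD (percentile 65.5) and 248.39 under SCD (percentile 57.8). In WAT H3K9me2 it was 58.84 under HFD (percentile 10.5) and 65.59 under SCD (percentile 35.7), and in WAT H3K9me3 it was 60.73 under HFD (percentile 19.7) with no peak under SCD. The peaks did not begin at the same place. In the HFD lists of WAT they began 289 and 254 bp after the outermost start, near the protein-coding starts at 286 and 290 bp, and in the BAT lists with a peak between -200 and -129 bp.

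**Figure D4:**
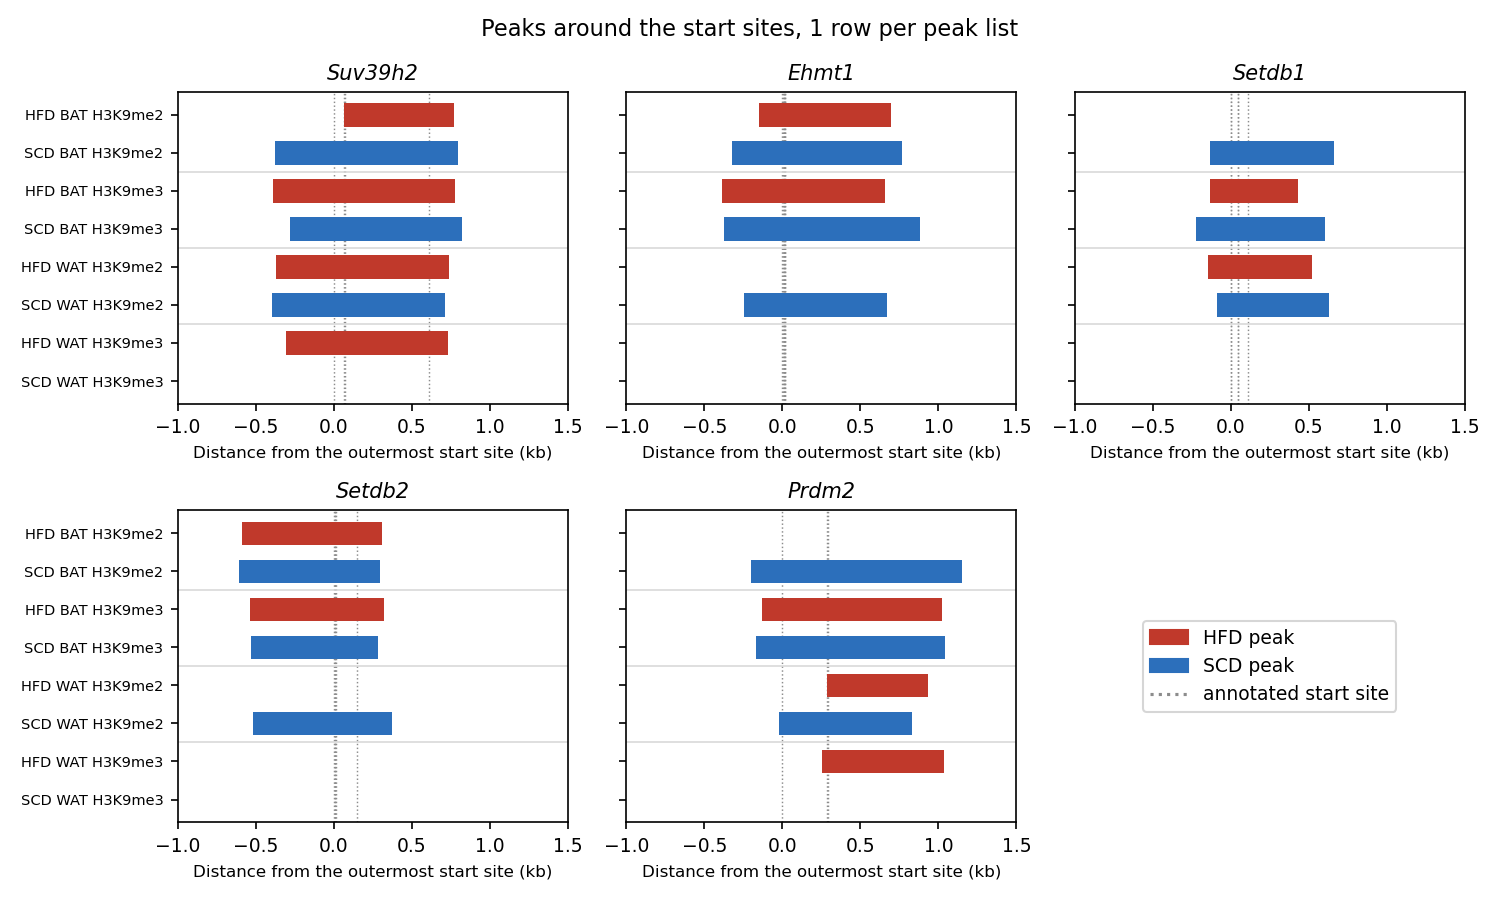
Peaks around the start sites of 5 of the genes (horizontal axis, kb from the outermost start site in the direction of transcription), 1 line per list with HFD in red above SCD in blue, and dotted lines at annotated start sites. The peaks of a gene overlap in place in every list that has one, while the empty lines differ from gene to gene.

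Peaks in gene bodies away from the promoters were found in Ehmt1 and Prdm2, the longest of the 6 genes, and in no other member. In BAT H3K9me2 such peaks were found in 2 of the 6 genes under HFD and in 1 under SCD, against 26.6% and 15.7% of all genes. In BAT H3K9me3 they were also found in 2 under HFD and 1 under SCD, against 24.1% and 13.9%. In WAT H3K9me2 the counts were 1 under HFD and 2 under SCD, against 9.8% and 22.2%, and in WAT H3K9me3 they were 0 under HFD and 0 under SCD, against 17.9% and 16.9%. The shares of all genes are not adjusted for gene length.

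The gene-body peaks of Prdm2 included one that was as common as the peak at its start. In the region from 50263 to 51481 bp after the outermost start the score was 51.61 under HFD and 133.42 under SCD in BAT H3K9me2, 358.91 under HFD and 284.19 under SCD in BAT H3K9me3, and 66.92 under HFD and 73.55 under SCD in WAT H3K9me2. The H3K9me3 lists of WAT had no peak there. The 645 bp common to the 6 peaks hold 84 CpG, and 127 of its bases are coding. The 544 bp common to the peaks at the start hold 76 CpG, a like density. The annotation gives no start site here, and the nearest one is at 18260 bp after the outermost start. In humans PRDM2 is known to make a shorter product without the PR domain from an internal promoter, and whether this mouse region corresponds to it was not tested.

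At this internal region each diet had a peak wherever the other had one. By score it followed the start region in BAT H3K9me3 and in WAT H3K9me2, where the start had 339.1 under HFD and 248.39 under SCD and 58.84 under HFD and 65.59 under SCD. In BAT H3K9me2 the start had no peak under HFD, while the internal region kept a peak with a score of 51.61, near the lowest of that list.

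The other 3 regions of Prdm2 were found in BAT only. An intronic region 8956 to 9832 bp after the start had scores of 120.98 under HFD and 90.22 under SCD in H3K9me2 and none in H3K9me3. It was the poorest in CpG of the 15 regions of the 6 genes, with 0.829 per 100 bp and a GC content of 47.3%. Peaks at 92339 to 92996 bp (53.56, H3K9me2) and at 100912 to 101347 bp (50.47, H3K9me3) were found under HFD only, and both scores are close to the lowest of their lists.

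**Figure D5:**
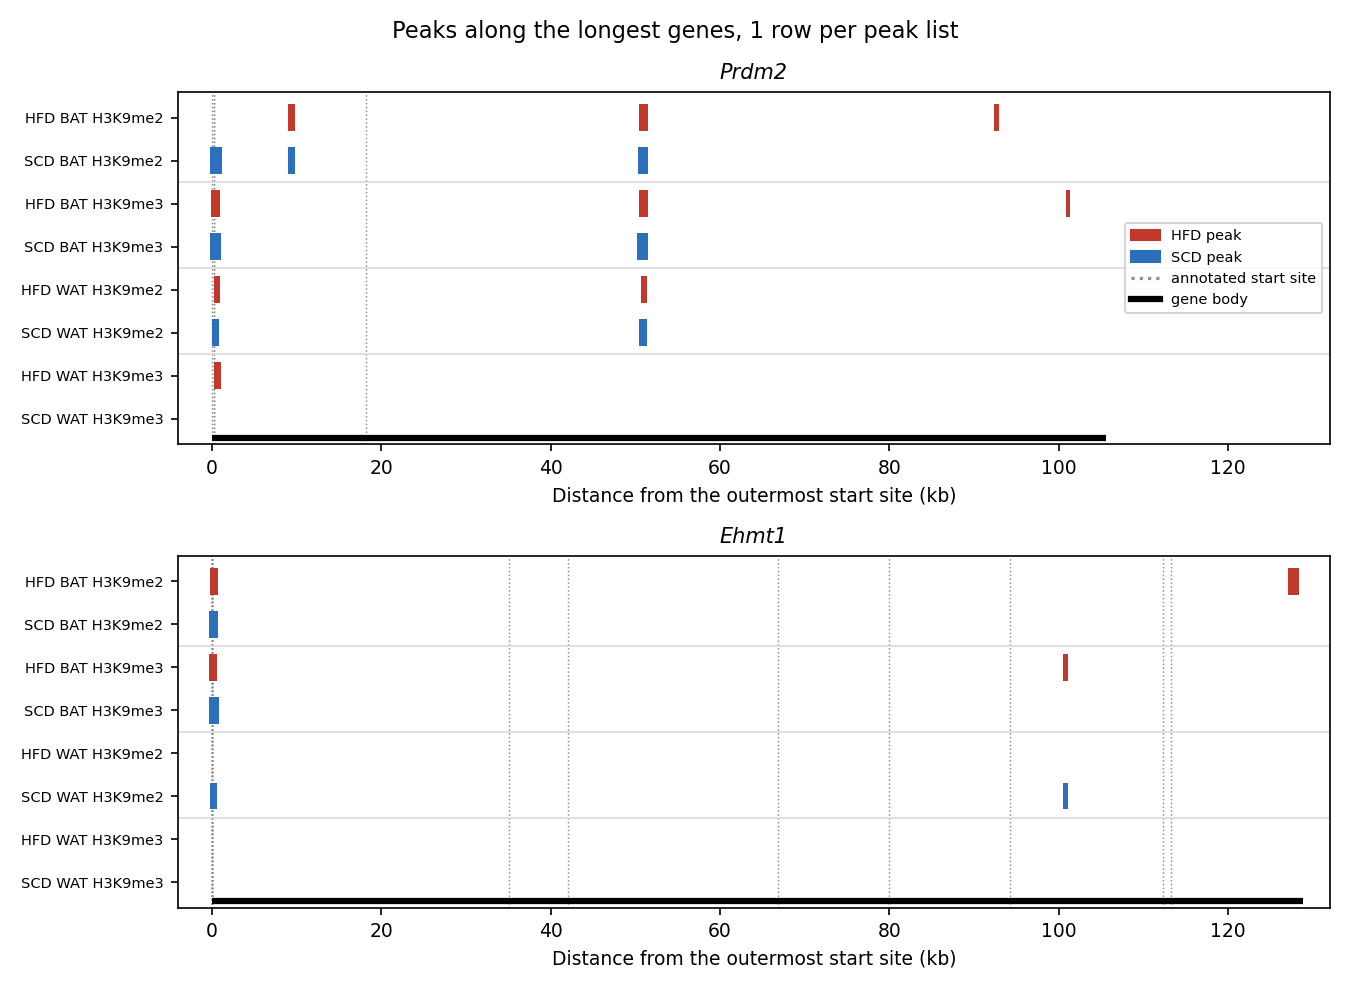
Position of each peak of Prdm2 (upper panel) and Ehmt1 (lower panel) along the gene (horizontal axis, kb from the outermost start site in the direction of transcription) in each list, HFD in red above SCD in blue. Prdm2 has a second recurrent region near 50263 bp in 6 lists, and the start sites of Ehmt1 after the first cluster have no peak within 3 kb.

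Merged over the lists, the 63 peaks made 15 regions, and no region had a peak in all 8 lists. There were 5 regions with a peak in 5 lists, 2 in 6 lists and 1, the start of Suv39h2, in 7, and 3 regions had a peak in 1 list only, each an HFD list of BAT. In BAT H3K9me2, 7 regions had a peak under both diets, 3 under HFD only and 3 under SCD only. In BAT H3K9me3, 8 had a peak under both, 4 under HFD only and 0 under SCD only. In WAT H3K9me2, 5 had a peak under both, 0 under HFD only and 5 under SCD only, and in WAT H3K9me3, 3 had a peak under HFD only and 0 under SCD. In each tissue and mark, the diet with more of these regions was also the one with the longer list of peaks, or, in BAT H3K9me2, the numbers were equal. The split by diet over the merged regions of all genes is not given. Whether these counts are particular to the 6 genes was therefore not tested.

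The marks were compared within a tissue and diet. In HFD BAT 8 of the 11 H3K9me2 peaks overlapped an H3K9me3 peak and 8 of the 14 H3K9me3 peaks overlapped an H3K9me2 peak. In SCD BAT these were 9 of 11 and 8 of 8. In HFD WAT they were 3 of 5 and 3 of 3, and in SCD WAT none of the 11 H3K9me2 peaks overlapped an H3K9me3 peak, since that list had 0 peaks at these genes. In BAT and HFD WAT the marks at these genes thus lay mostly on the same stretches. The overlap of the marks over all peaks is not given, so whether it is particular to these genes was not tested. The antibodies named in the methods leave the separation of the marks uncertain, and its part in this overlap was not tested.

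Over the 8 lists, Ehmt2 and Suv39h2 had a promoter peak in 7, Prdm2 in 6 and Ehmt1, Setdb1 and Setdb2 in 5. Of all protein-coding genes 14.4% had one in 7 lists, 12.4% in 6, 10.2% in 5, 7.41% in all 8 and 29.9% in none. For each member the genes most like it were found by the mean absolute difference of the percentile of the highest promoter score over the 8 lists, with 0 for no peak. They were Chtf8 and Cirh1a for Ehmt1 (3.22 percentile points each), Ankrd50 (8.44) for Ehmt2, and Tada1 (5.86) and Spaca1 (7.04) for Suv39h2. They were 6430704M03Rik (2.92) and Ash2l (2.94) for Setdb1, Dnajb2 (1.89) and Ulk3 (2.69) for Setdb2, and 2700050L05Rik (4.54) and Smurf2 (5.39) for Prdm2. Ehmt2 had the least close likeness, with its nearest gene 8.44 points away.

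Genes that act with these enzymes or undo their work were counted in the same way. Of 15 partners, such as Trim28 and Atf7ip, which act with Setdb1, Wiz and Zfp644, which act with Ehmt1 and Ehmt2, and the HP1 proteins Cbx1, Cbx3 and Cbx5, which bind methylated H3K9, 9 had a promoter peak under HFD and 10 under SCD in BAT H3K9me2, where 45.6% and 43.3% of all genes had one. In BAT H3K9me3 these were 13 under HFD and 13 under SCD (58.9% and 52.3% of all genes). In WAT H3K9me2 they were 12 under HFD and 13 under SCD (39.3% and 54.7%), and in WAT H3K9me3 10 under HFD and 3 under SCD (35.9% and 18.9%). In WAT H3K9me3 7 partners had a peak under HFD only and 0 under SCD only, against 23.9% and 6.89% of all genes. The highest HFD scores among them were those of Morc2a (160.16), an ATPase of the silencing machinery recruited by the HUSH complex, and Zfp644 (125.82). In BAT H3K9me2 Atf7ip had its peak under HFD only (72.41), and Suv39h1 (90.31) and Cbx3 (80.27) under SCD only, against 13.8% and 11.5% of all genes. Suv39h1, the relative of Suv39h2, was on the SCD-only side in BAT H3K9me3 too (84.8), and Mphosph8, a reader of H3K9me3 in the HUSH complex, on the HFD-only side (189.39), where 2.16% of all genes were SCD-only and 8.83% HFD-only. In WAT H3K9me2 only Atf7ip differed, with a peak under SCD only and a score of 39.94, below 50, where 18.0% of all genes were SCD-only.

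Of 11 H3K9 demethylase genes, 5 had a promoter peak under HFD and 6 under SCD in BAT H3K9me2, which is near the 45.6% and 43.3% of all genes. In BAT H3K9me3 9 had one under HFD and 8 under SCD (58.9% and 52.3% of all genes). In WAT H3K9me2 8 had one under HFD and 8 under SCD (39.3% and 54.7%), and in WAT H3K9me3 6 under HFD and 2 under SCD (35.9% and 18.9%). In BAT H3K9me2 Kdm4a (125.65) and Kdm4c (122.17), demethylases of tri- and di-methylated H3K9, had a peak under HFD only, and Kdm3b (114.9) and Kdm1a (75.91) under SCD only, among 2 HFD-only and 3 SCD-only genes, against 13.8% and 11.5% of all genes. Kdm4a was also the HFD-only gene of BAT H3K9me3 (77.53), where 8.83% of all genes were HFD-only. In WAT H3K9me3 5 had a peak under HFD only, led by Kdm3b (115.12) and Kdm4c (82.37), and 1, Kdm3a, under SCD only (37.24), against 23.9% and 6.89% of all genes. In WAT H3K9me2 Phf8 had a peak under HFD only (74.81) and Kdm4d under SCD only (31.13), against 2.63% and 18.0%. In WAT H3K9me3 all 3 groups of genes, like the whole annotation, thus had more HFD-only than SCD-only promoter peaks.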

How the data were processed

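H3K9me2 and H3K9me3 ChIP-seq of BAT and WAT comprised 12 libraries, of which 8 have a list of peaks and 4 are inputs, which were not used here. Per the labels, the authors used FastQC, Trim Galore, Bowtie2 2.4.2, MACS2 and the mm9 genome. How inputs entered the peak calling is not given in the sources used here. The score deposited by the authors for each peak has no stated unit and was taken to be a negative log10 p-value multiplied by 10. It is not scaled between libraries. Depth is unknown, so no intervals are given.

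Groups came from the labels. With 1 library per diet, tissue and mark, values were described without a test. Genes and start sites (22380 protein-coding genes, 70064 starts) came from GENCODE vM1, on the NCBIM37 genome. None of 261547 peaks on placed chromosomes ended past a chromosome (0 cases). Promoters were 3 kb on either side of any start, and an overlap of 1 bp counted. Of 179040 calls, 0 differed from those of bedtools 2.31.1. Python 3.11.15, NumPy 2.4.6, pandas 2.3.3 and matplotlib 3.10.9 were used, and the steps were tested on simulated data. Sequences came from the mm9 genome.

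The 6 genes, the lists of 15 partners and 11 demethylases and the alternatives were chosen with earlier results of these data known. All 6 genes are named. Of the other lists, at most 2 genes with the highest HFD-only and then SCD-only score are named per tissue and mark. Of the genes most like each member up to 2 are named (a further one is not reported here), leaving out those with a start within 6 kb, and neighbours are named where a start lies within 3 kb of a promoter peak. Alternatives were a lowest score of 50 or 80, equal numbers of peaks, promoters of 1 kb on either side and 1 start site per gene.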

Additional observations from a re-analysis of the deposited data

Results flagged for a closer look

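For 4 of the genes the diets differed in opposite directions in BAT and WAT. The share of all genes with opposite directions is not given, so whether this count is particular to these genes was not tested. The value is the percentile of the highest promoter score under HFD minus that under SCD, with 0 for a list without a peak. For H3K9me2 it was 2.53 in BAT and -18.0 in WAT at Ehmt2, -32.9 in BAT and 70.0 in WAT at Suv39h2, -43.5 in BAT and 27.3 in WAT at Setdb1, and 56.1 in BAT and -68.7 in WAT at Setdb2. For H3K9me3 it was -18.2 in BAT and 83.7 in WAT at Suv39h2. At Ehmt2 the BAT value for H3K9me2 compares 294.92 in the internal region under HFD with 294.44 in the upstream region under SCD. In WAT the lowest score was 50 under HFD and 30 under SCD, and its part in the percentiles was not tested. The SCD WAT H3K9me2 scores of Suv39h2 (47.05) and Setdb1 (32.06) lie below 50. Each value rests on 1 library per diet, and the difference between the tissues was not tested.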

How the results depend on the processing

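Counts within 1.5 times were taken as unchanged, and by this rule promoters of 1 kb on either side changed 0 of 24 counts and 1 start site per gene 0 of 16. With 1 start site per gene, however, Ehmt2 dropped out in WAT under HFD, where its peaks lie at internal starts only: the HFD count became 3 in place of 4 for H3K9me2 and 2 in place of 3 for H3K9me3, the SCD-only count for H3K9me2 became 3 in place of 2 and the HFD-only count for H3K9me3 became 2 in place of 3. A lowest score of 50 changed 2 of 24, equal numbers of peaks 4 of 24 and a lowest score of 80 changed 8 of 24. Within the rule, the SCD promoter count in WAT H3K9me2 still became 4, in place of 6, at a score of 50 and with equal numbers. The HFD count there was 4 in both settings. For promoter peaks in BAT H3K9me2 the count under HFD became 2 (Ehmt2 and Setdb2) in place of 4 at a score of 80 and with equal numbers. There the SCD-only count became 4 (Ehmt1, Prdm2, Setdb1 and Suv39h2) in place of 2 in both settings, and the HFD-only count 1 (Setdb2) in place of 0 at a score of 80. In WAT H3K9me2 the count at a score of 80 was 1 under HFD (Suv39h2), in place of 4, and 2 under SCD (Ehmt1 and Setdb2), in place of 6. The HFD-only count there was 2 (Setdb1 and Suv39h2) at a score of 50 and with equal numbers and 1 (Suv39h2) at a score of 80, in place of 0. Gene-body counts in WAT H3K9me2 became 0 under HFD, in place of 1, at a score of 80, and under SCD, in place of 2, 1 (Prdm2) at a score of 50 and with equal numbers and 0 at a score of 80. Among these alternatives, shares of all genes are given only for the HFD-only and SCD-only counts of WAT at a lowest score of 50. The other changed counts therefore cannot be set against those of all genes. No paired analysis was possible because no group had more than 1 library. What depth limits cannot be stated, since depth is unknown.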
